A study of Zea mays with 12 samples.

Results

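CERK1 and SERK2 are 2 of the 52932 genes in a table of RNA levels from maize (Zea mays), and their levels were read in all 12 libraries. They were chosen by identifier, Zm00001eb037080 for chitin elicitor receptor kinase 1 (CERK1) and Zm00001eb244860 for somatic embryogenesis receptor-like kinase 2 (SERK2), and the names are those given in the table. The choice was made with results of these data known, and the rule does not say which values were used, so all 12 values of each gene are treated as known and their differences are given as a description without a test.

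The libraries came from whole plants and fall into 4 groups of 3, formed by a treatment, BV-3 or CK, and by a disease class, susceptible or resistant. BV-3 is a Bacillus strain, and the series text speaks of inoculating maize with it. CK is the group it is compared with, an abbreviation the labels do not spell out. All groups are of the same species and tissue label, and the sources used here do not give the genotype of either class, the age of the plants, the dose or the harvest time. The library titles carry codes that differ between the classes and between the treatments, and the labels do not say what the codes stand for. The 3 libraries of a group are called biological samples in the labels, with no word on whether they are single plants or pools, so the spread between them may be partly technical.

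Chitin is the main polymer of fungal cell walls, and plants read its fragments as a sign of a fungus. CERK1 is a receptor kinase of the plasma membrane with LysM domains outside the cell, the domains that bind chitin, and in rice it acts together with the chitin elicitor-binding protein CEBiP, which has no kinase domain. SERK proteins are receptor kinases with leucine-rich repeats (LRR) that act as co-receptors: in Arabidopsis they pair with ligand-binding LRR receptors such as the flagellin receptor FLS2 and the brassinosteroid receptor BRI1. The routes from CERK1 and from immune receptors such as FLS2 pass through receptor-like cytoplasmic kinases to NADPH oxidases, which make reactive oxygen. In whole plants, more cells with the transcript and more transcript per cell cannot be told apart.

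Some libraries went against their labels or stood apart, so the values of CERK1 and SERK2 under CK, and the results on other genes that rest on these libraries, are given with and without them where they moved. Total counts ranged from 27.0 to 37.8 M per library, and 33605 to 37691 genes had a count. As line markers, 246 genes were present in every BV-3 susceptible library and nearly absent from every BV-3 resistant library, and 339 genes had the opposite pattern. The first CK susceptible library held 98.0% of the susceptible markers, whereas the other 2 libraries with the label CK susceptible, the second and the third, held 0.8% and 1.6% of them and 94.4% and 95.0% of the resistant markers, and these are called the 2 mismatched libraries. The CK resistant libraries held 93.8% to 97.6% of the resistant markers. The second CK resistant library had photosynthesis genes (63 genes) at a median of -3.29 on a centred log2 scale, against -0.66 to 1.27 in the others, and cytosolic ribosomal protein genes (329 genes) at 2.30, against at most 0.41. The third BV-3 susceptible library stood apart in clock genes: its GIGANTEA transcript Zm00001eb337600 was at 229 FPKM, against 6.05 to 13.4 elsewhere. Its CERK1 and SERK2 levels were within the range of, or close to, the other 2 of its group. The LHY transcript Zm00001eb172450, a morning gene of the clock, was at 198 to 1163 FPKM in the BV-3 libraries and at 37.2 to 203 FPKM in the CK libraries, so clock state and treatment cannot be told apart.

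CERK1 was highest in the BV-3 susceptible libraries. FPKM counts sequenced fragments relative to gene length and to the mapped depth of the library, so that it allows for both. CERK1 stood at 70.4, 70.8 and 73 FPKM in the 3 BV-3 susceptible libraries and at 37.1, 11.7 and 10.7 FPKM in the libraries labelled CK susceptible, in the order of their replicate numbers. In the resistant class it stood at 17.9, 7.22 and 12.4 FPKM in the CK libraries and at 19.9, 18.0 and 13.8 FPKM in the BV-3 libraries. The BV-3 susceptible libraries lay close together and above every other library, while the 2 resistant groups overlapped. The first CK susceptible library was above all 6 resistant libraries, and the 2 libraries with the markers of the other line lay inside the range of the CK resistant group. These values rest on 650 to 8069 counts per library, and 74.1% to 97.7% of all genes in a library lay below CERK1.

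SERK2 was likewise highest in the BV-3 susceptible libraries, at 53.6, 77.0 and 63.5 FPKM. It stood at 25.7, 11.8 and 12.9 FPKM in the libraries labelled CK susceptible. The resistant libraries had 30.2, 20.1 and 20.2 FPKM under CK and 28.7, 36.8 and 24.6 FPKM under BV-3. All BV-3 susceptible values exceeded those of the other 9 libraries. Here the first CK susceptible library lay within the range of the CK resistant group, and the 2 libraries with the markers of the other line were the lowest of all 12. The counts behind these values were 1092 to 8631 per library.

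**Figure D1:**
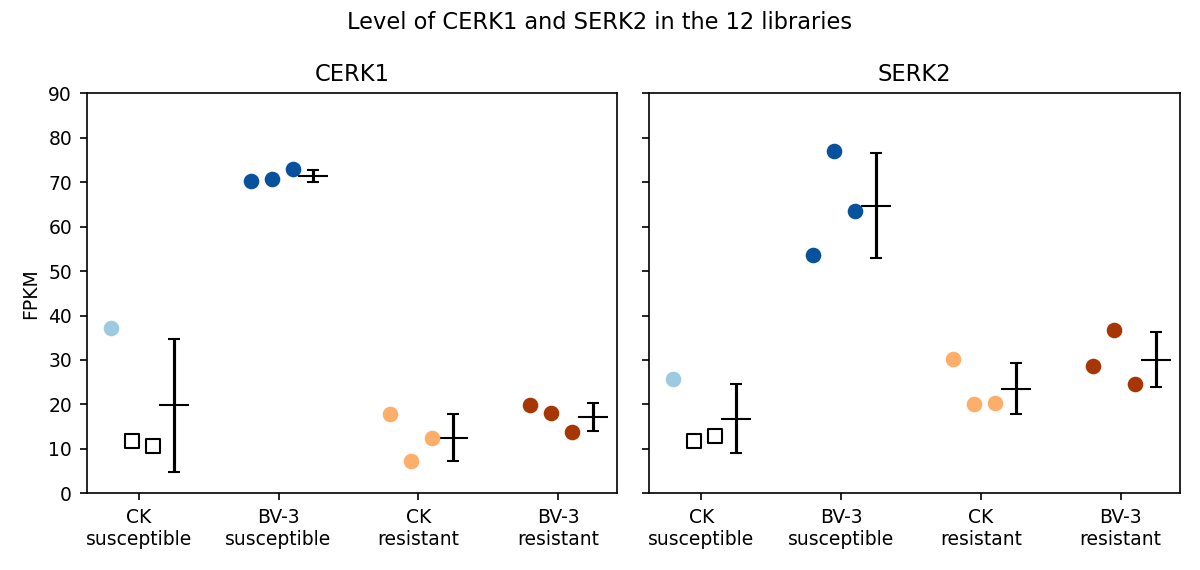
FPKM of CERK1 (left) and SERK2 (right) in each of the 12 libraries, by group. Circles are libraries, open squares are the 2 libraries labelled CK susceptible that hold the markers of the other line, and the horizontal line with its bar is the mean ± SD of 3 libraries. The BV-3 susceptible libraries lie at 70.4 to 73 FPKM for CERK1 and at 53.6 to 77.0 FPKM for SERK2, above all others.

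In order of the group means, CERK1 went from CK resistant (12.5 ± 5.36 FPKM, SD, n = 3) through BV-3 resistant (17.2 ± 3.11) and CK susceptible (19.8 ± 15.0) to BV-3 susceptible (71.4 ± 1.39). The lower 3 groups overlapped, so their order is not larger than the spread between libraries. SERK2 went from CK susceptible (16.8 ± 7.72 FPKM, SD, n = 3) through CK resistant (23.5 ± 5.78) and BV-3 resistant (30.0 ± 6.20) to BV-3 susceptible (64.7 ± 11.8). Again each neighbouring pair among the lower 3 groups overlapped, and the gap to BV-3 susceptible was the one step without overlap. With the 2 mismatched libraries left out, the CK susceptible group is 1 library, which lies between BV-3 susceptible and BV-3 resistant for CERK1 and between BV-3 resistant and CK resistant for SERK2.

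As ratios of mean FPKM, the BV-3 susceptible group was 3.60 times the CK susceptible group for CERK1 and 3.86 times for SERK2. The CK group holds the 2 mismatched libraries, so these ratios mix line with treatment. On the log2 scale of the edgeR fit to the counts of all libraries, CERK1 was higher by 1.81 ± 0.52 (SE) and SERK2 by 1.92 ± 0.37. Both genes had groups that did not overlap, as did 18.6% of the 34291 tested genes in that direction, so such a pattern was common in this comparison. Of the tested genes, 89.3% had a lower log2 fold change than CERK1 and 90.4% a lower one than SERK2. The size rests on the 2 mismatched libraries: without them, the ratio to the single remaining CK susceptible library was 1.92 for CERK1 and 2.52 for SERK2, and the log2 differences were 0.89 ± 0.56 and 1.28 ± 0.47. That lone library is assumed in the fit to vary like the other groups. Without the first CK susceptible library instead, the log2 differences were 2.68 and 2.39, which then set BV-3 libraries of one line against CK libraries with the markers of the other.

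BV-3 and CK libraries of the resistant class overlapped for both genes. The ratio of means was 1.38 for CERK1 and 1.28 for SERK2, with log2 differences of 0.52 ± 0.50 and 0.40 ± 0.36. Of the tested genes, 7.71% had groups that did not overlap with BV-3 higher, and 9.46% with BV-3 lower. Without the second CK resistant library, which stands apart and holds the lowest CERK1 value, the ratios were 1.13 and 1.19. On the log2 scale, the resistant-class difference minus that labelled susceptible was -1.29 ± 0.71 for CERK1 and -1.52 ± 0.51 for SERK2. Without the 2 mismatched libraries, these values were -0.36 ± 0.66 and -0.88 ± 0.55. No gene of the whole table was called for this difference between classes with edgeR at a Benjamini-Hochberg adjusted p under 0.05. In edgeR 4688 had an unadjusted p under that value, and DESeq2 called 1706.

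The contrast between the classes under BV-3 compares none of the CK libraries. Its SE and its calls still rest on a spread, a scaling and a filter taken from all libraries. CERK1 was 4.14 times and SERK2 2.15 times as high in the BV-3 susceptible as in the BV-3 resistant libraries, which is -2.26 ± 0.52 and -1.34 ± 0.36 on the log2 scale for resistant against susceptible. Neither gene's groups overlapped, as was true of 14.7% of tested genes in that direction. Over all 20 other settings the value stayed between -2.47 and -2.0 for CERK1 and between -1.46 and -1.09 for SERK2. Settings that leave out only CK libraries could hardly move it, because it is a difference of BV-3 group means. Under CK the classes differed less clearly: the ratio of susceptible to resistant was 1.58 for CERK1 and 0.71 for SERK2, and with the single matching CK susceptible library it was 2.96 and 1.09. The BV-3 libraries of the susceptible class are shared by this contrast and by the comparison of BV-3 with CK, so their high values enter both.

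**Figure D2:**
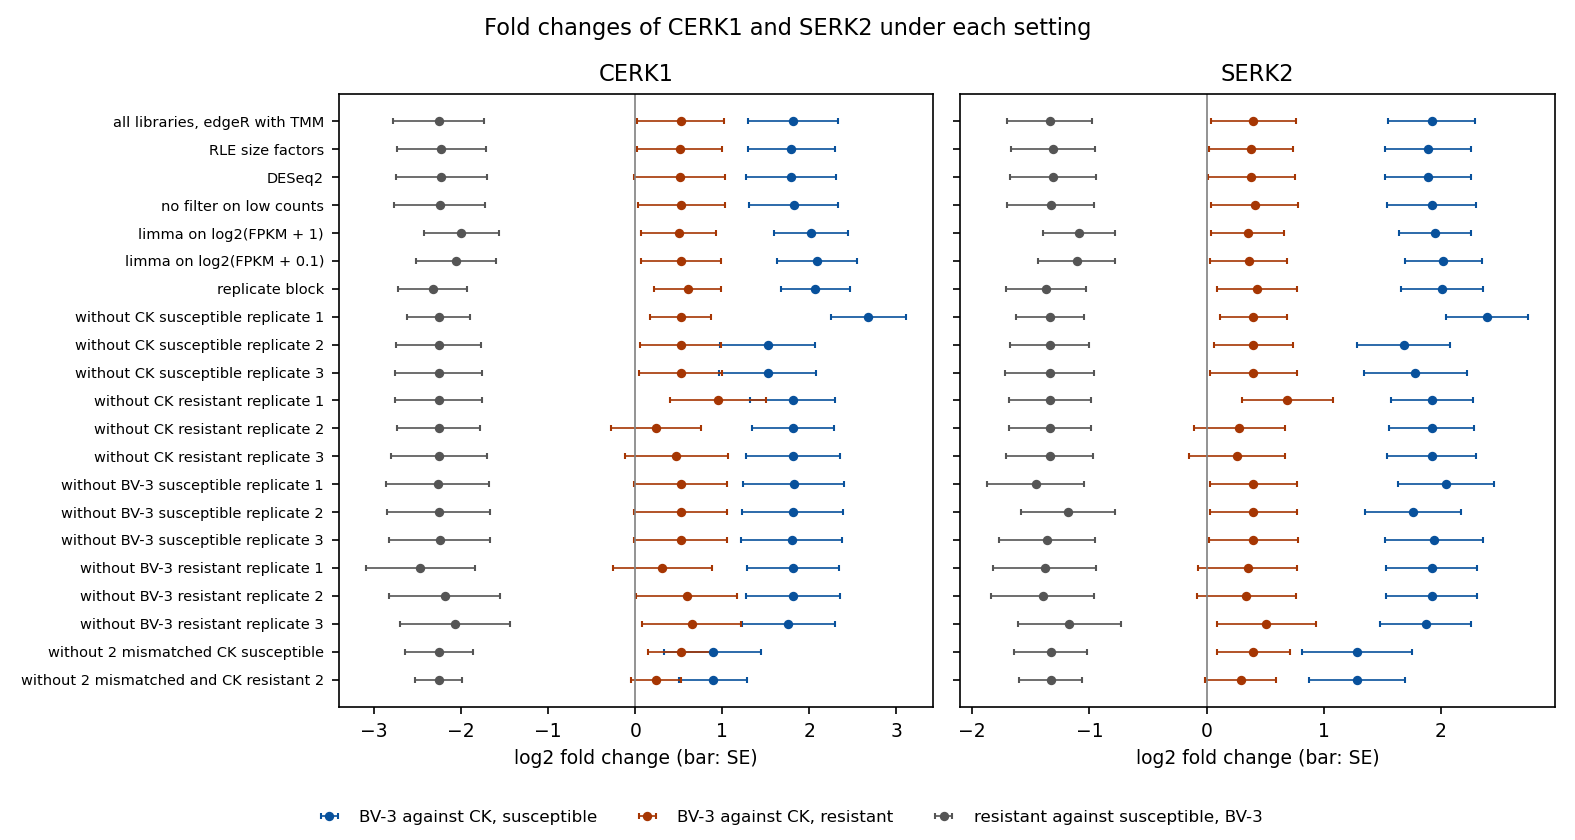
Log2 fold changes of CERK1 (left) and SERK2 (right) with their SE, for 3 comparisons (colours), in the reported fit (top) and in 20 other settings (rows). The resistant against susceptible values under BV-3 stay within -2.47 to -2.0 for CERK1, while BV-3 against CK in the susceptible class moves from 1.81 to 0.89 when the 2 mismatched libraries are left out. Rows that leave out only CK libraries could hardly move the resistant against susceptible value.

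CERK1 and SERK2 varied together across the libraries. Over all 12, log2(FPKM + 1) of the pair had a Pearson correlation of 0.87 and a Spearman correlation of 0.90, and without the 2 mismatched libraries it was 0.89 and 0.88 over 10. These are descriptions of libraries that fall into groups, with the high BV-3 susceptible libraries at one end. The ratio of the FPKM of CERK1 to that of SERK2 was higher in every library labelled susceptible than in every resistant library. It was 1.31, 0.92 and 1.15 in the BV-3 susceptible libraries and 1.45 in the first CK susceptible library, against 0.69, 0.49 and 0.56 in BV-3 resistant and 0.59, 0.36 and 0.62 in CK resistant. In the 2 mismatched libraries it was 1.00 and 0.83, above every CK resistant library although these libraries hold the resistant markers.

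**Figure D3:**
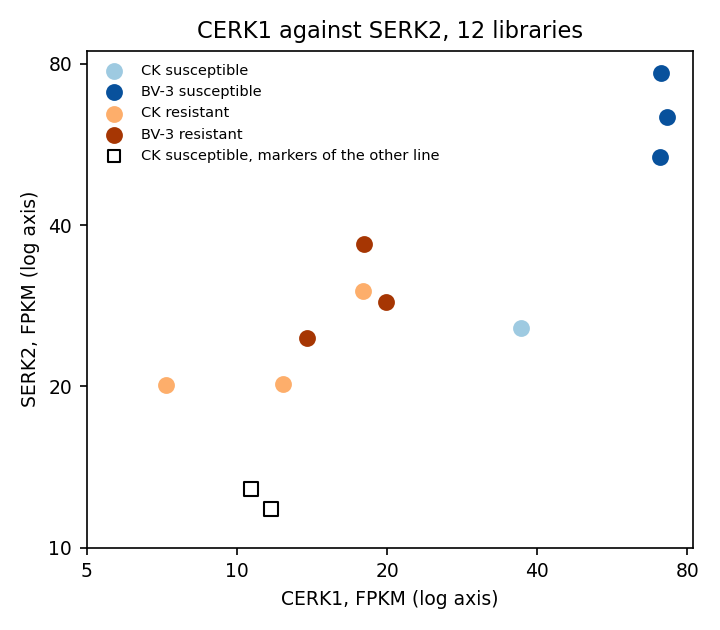
FPKM of CERK1 (horizontal, log axis) against SERK2 (vertical, log axis) in the 12 libraries, coloured by group. Open squares are the 2 libraries labelled CK susceptible that hold the markers of the other line. The 3 BV-3 susceptible libraries lie apart at the upper right, and the first CK susceptible library lies to the right of the resistant libraries at a similar SERK2 level.

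Among LysM receptor kinases, CERK1 carried most of the FPKM where it was high. The table describes 10 genes as such kinases, and CERK1 made up 67.3%, 67.5% and 67.9% of their summed FPKM in the BV-3 susceptible libraries and 64.0% in the first CK susceptible library. Among resistant libraries its share was 29.8% to 39.8% under BV-3 and 21.0% to 38.8% under CK, and in the 2 mismatched libraries it was 35.8% and 35.3%. The share in the first CK susceptible library was thus close to that under BV-3, although its CERK1 level was lower. The gene described as LysM domain receptor-like kinase 10 (Zm00001eb318070) had a higher mean than CERK1 in both resistant groups and a lower one in both susceptible groups. Its mean was 14.1 ± 0.444 FPKM in CK susceptible, 18.3 ± 1.52 in BV-3 susceptible, 19.9 ± 4.21 in CK resistant and 19.2 ± 2.06 in BV-3 resistant. In CK susceptible the order rests on the first library, where CERK1 was at 37.1 FPKM. In the 2 mismatched libraries CERK1 was at 11.7 and 10.7 FPKM, below that mean. The other 7 detected kinases had means over the 12 libraries of 0.408 to 4.88 FPKM, and 1 (Zm00001eb187300) was listed at 0 throughout.

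A second gene that the table's Swiss-Prot column describes as chitin elicitor receptor kinase 1, Zm00001eb279230, rose in the susceptible class. It stood at 2.42, 2.35 and 2.14 FPKM in the libraries labelled CK susceptible and at 11.7, 9.96 and 5.15 FPKM under BV-3. The resistant libraries had 3.55, 3.54 and 3.71 FPKM under CK and 4.18, 4.11 and 5.66 FPKM under BV-3. Unlike CERK1, its level in the first CK susceptible library was close to those of the other 2 with that label. The log2 difference in the susceptible class was 1.94 ± 0.37 (edgeR, Benjamini-Hochberg adjusted p = 0.0398). Without the mismatched libraries it was 1.83, a value that rests on 1 CK susceptible library. The adjacent column of the table describes the same gene as protein kinase APK1B, so its name is less certain than that of Zm00001eb037080.

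Among 7 genes described as SERK or BAK1 kinases, SERK3 (Zm00001eb182940) had the highest mean FPKM in all 4 groups. SERK2 came next in both BV-3 groups. In CK resistant its mean of 23.5 FPKM was below the 26.4 of Zm00001eb414790, and in CK susceptible its 16.8 was below the 34.8 of Zm00001eb167150 and the 25.5 of Zm00001eb414790. The share of SERK2 in their summed FPKM was 23.8%, 33.6% and 22.5% in the BV-3 susceptible libraries, 18.2%, 7.10% and 9.60% in those labelled CK susceptible, 12.9% to 25.4% in CK resistant and 13.9% to 20.2% in BV-3 resistant. SERK3, the counterpart by name of Arabidopsis BAK1, had higher means under BV-3 in both classes: 60.9 ± 4.90 FPKM in CK susceptible against 117 ± 25 in BV-3 susceptible, and 42.3 ± 19.3 in CK resistant against 80.8 ± 26.5 in BV-3 resistant. Its log2 differences were 0.91 ± 0.43 and 1.01 ± 0.43, and neither passed the test. Without the mismatched libraries the first was 0.98. SERK1 (Zm00001eb423960) had a log2 difference of 1.5 ± 0.40 in the susceptible class (edgeR, adjusted p = 0.0507), which was 0.99 without the mismatched libraries, and 0.69 ± 0.39 in the resistant class. Zm00001eb414790 and Zm00001eb172000, both described as SERK2-like or BAK1 kinases, had values of -0.84 ± 0.31 and -1.18 ± 0.42 in the susceptible class, and these were -0.53 and 0.09 without the mismatched libraries. Of the 11 genes matched as SERK or BAK1, SERK2 included, 7 had a log2 difference above 0 in the susceptible class with all libraries. Without the mismatched libraries 10 did, against the single remaining CK susceptible library. The median over all tested genes was 0.07 in both fits, so values above 0 were common. Genes of this family are similar in sequence, and the sources used here do not say how reads shared between them were counted.

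**Figure D4:**
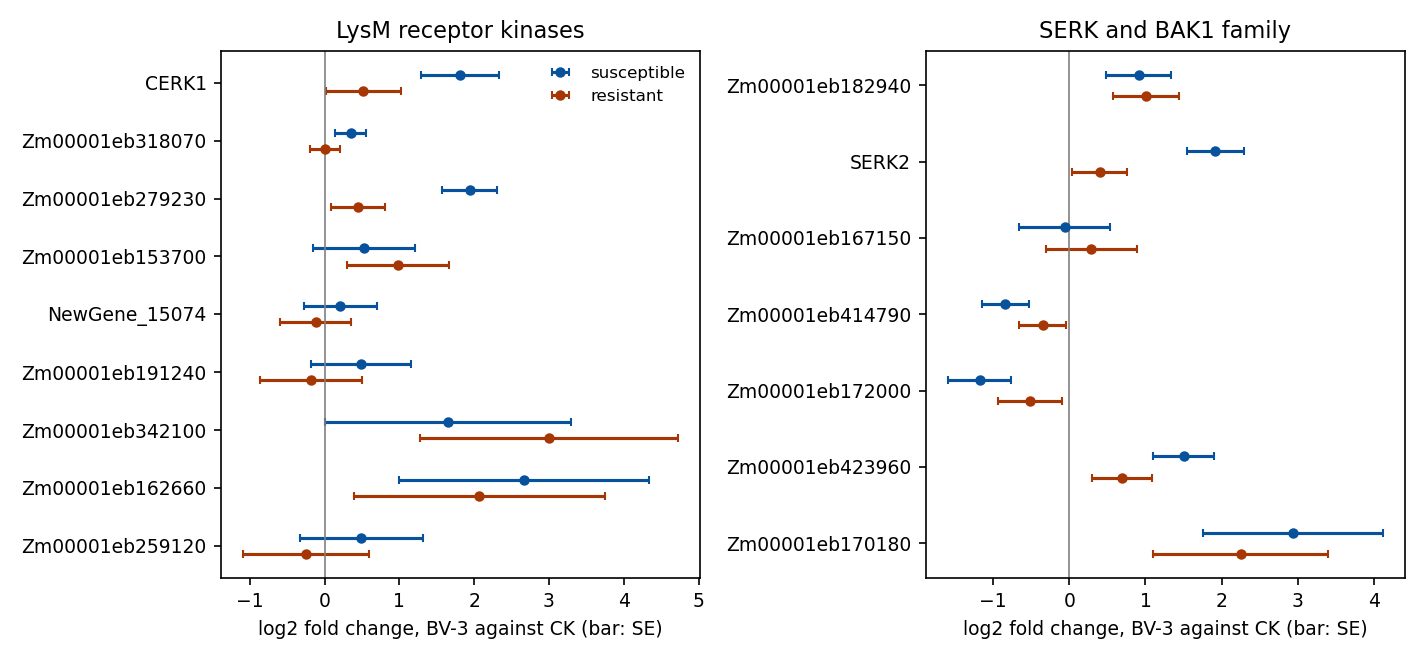
Log2 fold change of BV-3 against CK with its SE, in the susceptible (blue) and the resistant class (brown), for the 9 tested LysM receptor kinases (left) and the 7 SERK or BAK1 kinases (right), ordered by mean FPKM. CERK1, Zm00001eb279230 and SERK2 stand at 1.81 to 1.94 in the susceptible class and at 0.40 to 0.52 in the resistant class, while SERK3 (Zm00001eb182940) stands at 0.91 and 1.01.

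The genes around both receptors were taken as 8 lists from their descriptions and ordered by role. In the susceptible class 2.30% of all tested genes rose and 3.90% fell, and the median log2 fold change of all tested genes was 0.07. Calls in this comparison need nearly all libraries: leaving out any 1 library other than the first CK susceptible or the second CK resistant left 76 or fewer called genes in the whole table. Of the 21 LysM proteins in the fit (23 listed), CERK1 is given without a test. Among the others 1 rose, Zm00001eb279230, and none fell. The list median, CERK1 included, was 0.92. Without the 2 mismatched libraries the CK susceptible group is 1 library, so only sizes are given. The medians in the susceptible class were then 0.71 for LysM proteins, 0.70 for SERK or BAK1, 0.42 for LRR receptors, 0.48 for BIR genes, 0.57 for cytoplasmic kinases and 1.15 for U-box ligases. Of the 11 genes matched as SERK or BAK1, SERK2 is given without a test, and none of the others rose or fell. The median of the 11, SERK2 included, was 0.56. That list caught 4 genes whose Swiss-Prot description is not a SERK or BAK1 kinase. Among them was the abundant LRR protein Zm00001eb020710, which the adjacent column describes as BAK1. It was at 239 ± 16.2 FPKM in BV-3 susceptible against 86.9 ± 42.3 in CK susceptible, with 136 in the first CK susceptible library. Its log2 difference was 1.44 ± 0.40, and 0.77 without the mismatched libraries. In the resistant class, in the difference between classes and between the classes under BV-3, edgeR called no gene of any list. It called none in the whole table there either, with 3452, 4688 and 7522 genes at an unadjusted p under 0.05 and 1044, 1706 and 4724 called by DESeq2.

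Among the ligand-binding partners, no change passed the test. Of 34 listed LRR receptors 23 were tested, with a median log2 fold change of 0.20 in the susceptible class. The FLS2 gene Zm00001eb070510, whose protein binds bacterial flagellin in Arabidopsis, followed the line markers: it was at 13.7 FPKM in the first CK susceptible library and at 7.20, 6.52 and 4.51 FPKM under BV-3, but at 0.425 to 1.38 FPKM in the 2 mismatched and the 6 resistant libraries. Neither CEBiP gene passed the test. Zm00001eb002690 was at 65.1, 31.3 and 33.8 FPKM in the libraries labelled CK susceptible and at 36.1, 56.7 and 34.5 FPKM under BV-3. Its log2 difference in the susceptible class was -0.06 ± 0.59, and -0.67 without the mismatched libraries. Zm00001eb321000 was at 1.36, 0.445 and 0.144 FPKM in the libraries labelled CK susceptible and at 1.26, 5.37 and 0.626 FPKM under BV-3, a log2 difference of 1.88 ± 1.38, which was 0.79 without the mismatched libraries. It was highest in the second CK resistant library, at 27.2 FPKM, and in the second BV-3 resistant library, at 19.2 FPKM.

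Most of the other calls in the lists were among regulators and cytoplasmic kinases, the latter being the list with the most tested genes. Of all tested genes, 2.30% rose and 3.90% fell in this comparison. BIR2 (Zm00001eb425300), a pseudokinase that in Arabidopsis keeps BAK1 away from its receptors until a ligand is present, rose from 4.12 ± 1.19 to 13.7 ± 2.90 FPKM (SD, n = 3) in the susceptible class, by 1.70 ± 0.43 on the log2 scale (edgeR, adjusted p = 0.0457). It was the 1 call among 4 tested BIR genes of 8 listed, whose median was 0.84. Of 41 tested receptor-like cytoplasmic kinases (56 listed) 4 rose and 1 fell, with a median of 0.75. PBL19 (Zm00001eb319700) was at 7.14, 1.30 and 1.69 FPKM in the libraries labelled CK susceptible and at 32.6, 25.8 and 19.5 FPKM under BV-3, a log2 rise of 2.90 ± 0.60 (edgeR, adjusted p = 0.0398). PBL10 (Zm00001eb429130) rose by 2.79 ± 0.56 (edgeR, adjusted p = 0.0398), from 11.1, 2.92 and 5.27 FPKM to 47.6, 55.8 and 32.5 FPKM. In both kinases the first CK susceptible library was the highest of its label, as it was for CERK1 and SERK2. PBL3 (Zm00001eb048420) and PBS1 (Zm00001eb241950) rose by 1.68 ± 0.44 and 1.19 ± 0.25 (edgeR, adjusted p = 0.0488 and 0.0401). Without the 2 mismatched libraries the log2 differences of PBL19, PBL10, PBL3, PBS1 and BIR2 were 1.81, 2.03, 1.21, 0.72 and 1.26. These values rest on 1 CK susceptible library.

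The 2 genes of the lists that fell, as did 3.90% of all tested genes, followed the line markers. PBL8 (Zm00001eb072250; edgeR, adjusted p = 0.0446) was listed at 0 FPKM in all BV-3 susceptible libraries and in the first CK susceptible library, and at 2.69 to 8.81 FPKM in the other 8. A U-box gene (Zm00001eb420580; edgeR, adjusted p = 0.044), the 1 call among 8 tested U-box ligases of 12 listed, had the same pattern, at 0 FPKM in those 4 libraries and 0.737 to 2.20 FPKM in the others. Some ligases of this type mark receptors for removal in Arabidopsis. The descriptions of Zm00001eb420580 differ: putative U-box protein 47 in the Swiss-Prot column and U-box protein 12 in the adjacent one. The median of the U-box list was 1.63 in the susceptible class and 0.70 in the resistant class. Some of its genes had low levels: Zm00001eb065620 and Zm00001eb243070 averaged 0.369 and 0.325 FPKM in CK susceptible. Their log2 differences in that class were 3.24 ± 1.16 and 2.37 ± 1.39.

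At the output end, NADPH oxidases and chitinases had higher medians than all tested genes in both classes, with no call. In the resistant class these medians were 0.51 and 0.53, against -0.07 for all tested genes. Without the mismatched libraries and the second CK resistant library they were 0.74 and 0.95, against 0.01. In the susceptible class the oxidase list had a median of 1.37 over 16 tested genes (20 listed), with 15 above 0. Without the mismatched libraries the list median there was 0.51, with 12 of 17 tested genes above 0. Its most abundant gene, described as oxidase C or D (Zm00001eb197890), was at 189, 191 and 148 FPKM in BV-3 susceptible and at 75.0, 14 and 30.9 FPKM in the libraries labelled CK susceptible. It also varied among CK resistant libraries, at 96.1, 14.8 and 39.3 FPKM, and stood at 74.8, 71.4 and 57.4 FPKM in BV-3 resistant. The 26 tested chitinases (36 listed), enzymes that release chitin fragments from fungal walls, had a median of 1.13 in the susceptible class. It was 0.68 without the mismatched libraries. Chitinase 6 (Zm00001eb246640) was the most abundant, at 336 ± 69.0 FPKM in BV-3 susceptible against 56.7 ± 39.8 in CK susceptible, 65.4 ± 54.2 in CK resistant and 60.6 ± 22.3 in BV-3 resistant, with a log2 difference of 2.53 ± 0.70 in the susceptible class (edgeR, adjusted p = 0.0555), which was 1.66 without the mismatched libraries. Chitinase 9 (Zm00001eb228500) went the other way in 1 library: it was at 37.7 FPKM in the first CK susceptible library, at 0 in all BV-3 susceptible libraries and at most at 6.63 FPKM elsewhere.

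**Figure D5:**
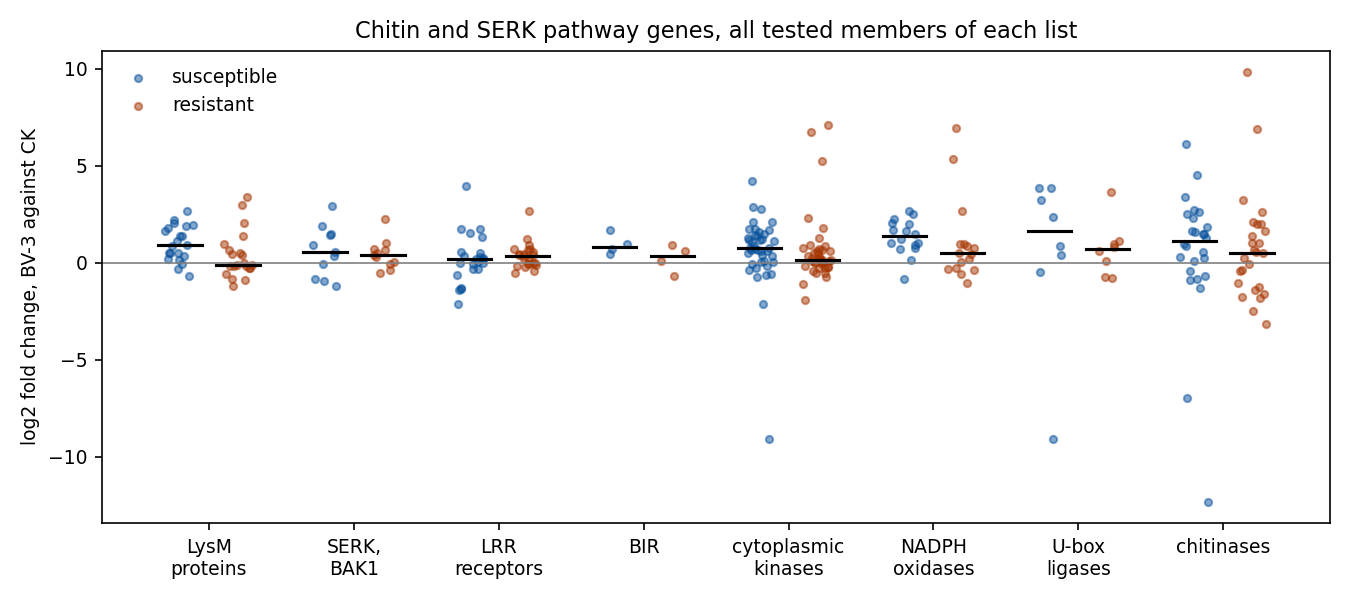
Log2 fold change of BV-3 against CK for every tested gene of 8 lists, in the susceptible (blue) and the resistant class (brown), with the list median as a black line. The medians in the susceptible class run from 0.20 for the LRR receptors to 1.63 for the U-box ligases, against 0.07 for all tested genes. Those in the resistant class run from -0.12 for the LysM proteins to 0.70 for the U-box ligases, against -0.07. CERK1 and SERK2 are points of the LysM and the SERK list.

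The genes whose log2(FPKM + 1) followed each receptor most closely were sought among 11682 annotated genes. These had a mean of at least 5 FPKM and a Swiss-Prot description that names a protein, so genes without such a description were not ranked. For CERK1 the first was a gene described as mitogen-activated protein kinase kinase kinase 1 (Zm00001eb216720), with a Pearson correlation of 0.985 over 12 libraries. It was at 57.2, 58.5 and 77.9 FPKM in BV-3 susceptible, at 31.4, 9.57 and 9.22 FPKM in the libraries labelled CK susceptible and at 8.35 to 17.3 FPKM in the resistant class. The next 4 were genes described as the MACPF protein CAD1 (Zm00001eb371010, 0.984), sugar transport protein 7 (Zm00001eb312640, 0.981), amino acid permease 6 (Zm00001eb384620, 0.978) and a signal recognition particle subunit (Zm00001eb370100, 0.976). The permease had the widest range of these, from 1.85 FPKM in the second CK resistant library to 226 FPKM in the second BV-3 susceptible library. By Spearman correlation 1 of these 5 was among the first 5, and without the mismatched libraries and the second CK resistant library also 1.

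For SERK2 the first was a gene described as oxysterol-binding protein-related protein 3C (Zm00001eb012300), with a Pearson correlation of 0.983. The second was allene oxide cyclase (Zm00001eb393530, 0.980), an enzyme of jasmonate synthesis, which was at 77.9, 114 and 74.4 FPKM in BV-3 susceptible, at 16.4, 3.33 and 5.78 FPKM in the libraries labelled CK susceptible and at 6.01 to 33.1 FPKM in the resistant class. A kinase described as wall-associated receptor kinase 3 (Zm00001eb114060, 0.978), a TOM1-like protein (Zm00001eb168920, 0.973) and the glucosyltransferase UGT13248 (Zm00001eb337300, 0.971) followed. In the set without the 3 libraries 4 of these 5 were again among the first 5, and by Spearman correlation 2 were. These correlations are over libraries that share the same groups, and the BV-3 susceptible libraries were the highest for each of the 10 genes.

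Neighbouring genes, protein-coding ones only, were read from a RefSeq annotation (Zm-B73-REFERENCE-NAM-5.0) in which the genes were found by symbol. No other annotated gene overlapped either receptor gene there. The nearest protein-coding gene on one side of CERK1 (LOC100281705) was also highest in BV-3 susceptible, at 32.4, 34.4 and 35.1 FPKM. However, it was at 14.9, 17.1 and 8.16 FPKM in the libraries labelled CK susceptible and did not set the first of them apart. The nearest on the other side, a glycine-tRNA ligase gene, was at 3.30 to 4.55 FPKM in BV-3 susceptible and at 28.0 FPKM in the second CK resistant library. Beside SERK2, LOC100274510 was higher under BV-3 in both classes, at 7.35 to 15.0 FPKM in the 6 BV-3 libraries and 0.176 to 1.43 FPKM in the 6 CK libraries, a pattern SERK2 did not have.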

How the data were processed

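The authors deposited 1 table with a raw count and an FPKM value per gene and library, per the file headers. Per the labels' protocols, poly(A) RNA was sequenced as strand-specific paired reads. The aligner was not given in the sources used here, nor were the counter and any use of strand in counting. Reads shared by similar or antisense genes are therefore uncertain. The submitters' processing notes name the build B73 RefGen, version 4, whereas the annotation used for neighbours is of another assembly, so no coordinates are printed. Of 52934 lines, 2 named no gene and were dropped. None of the identifiers matched that annotation (0), and 32306 genes were matched by symbol.

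Counts were fitted with edgeR 4.0.16 (R 4.3.3; quasi-likelihood test, TMM scaling, edgeR's filter on low counts, 34291 genes, common biological coefficient of variation 0.682) as 4 group means over 12 libraries, for 4 comparisons, with a call at an adjusted p (Benjamini-Hochberg) under 0.05. Standard errors were derived from the F value. The procedure was also run on simulated counts. Its pass condition was set at a smaller spread than in these data and with no mismatched library, so it does not check these calls. Levels are the authors' FPKM. The members, lists and alternatives were chosen with earlier results of these data known. The genes named are both receptors with their family members, called genes of a list, up to 4 genes of a list by smallest p among those averaging 1 FPKM or more, the most abundant of a list, and the 5 most correlated with each receptor. FLS2, GIGANTEA, the CEBiP genes and the neighbours were named for their role or place after values were seen. Alternatives were DESeq2 1.42.0, limma 3.58.1 on log2(FPKM + 1) and log2(FPKM + 0.1), other size factors, no filter, a replicate block and left-out libraries.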

Additional observations from a re-analysis of the deposited data

How the results depend on the processing

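Neither receptor changed direction in the 4 fitted comparisons under the 20 other settings. Leaving out a library of a group that a comparison does not use could hardly move its value, so such settings are no check of it. Susceptible against resistant under CK was not fitted, and there the ratio of means for SERK2 turned from 0.71 to 1.09 without the mismatched libraries. For BV-3 against CK in the susceptible class, leaving out 1 library at a time gave log2 differences of 1.52 to 2.68 for CERK1 and 1.68 to 2.39 for SERK2, and leaving out both mismatched libraries gave 0.89 and 1.28, with or without the second CK resistant library. For the difference between classes these ranges were -2.15 to -0.86 and -1.99 to -1.23, and the values without the mismatched libraries were -0.36 and -0.88, or -0.65 and -0.99 without the second CK resistant library too. TMM-scaled CPM in place of FPKM gave ratios of 3.52 and 3.77 for the susceptible class.

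The number of genes called was far less stable than the receptors' values. In the susceptible class edgeR called 2125, DESeq2 7010, and leaving out 1 library gave 0 to 6946 (6946 without the first CK susceptible library, 5307 without the second CK resistant library, 76 or fewer without any other). Without the mismatched libraries it was 0, and 1 without the second CK resistant library as well. In the resistant class, for the difference and between classes under BV-3 edgeR called 0. DESeq2 called 1044, 1706 and 4724, limma with a pseudocount of 1 called 6, 2 and 2389, and limma with 0.1 called 5, 1 and 3044. Leaving out 1 library gave 0 to 3, 0 to 2083 and 0 to 4225. The last comparison called 3710 without the mismatched libraries and 5932 without the second CK resistant library too. Of the calls in the susceptible class 37.1% were higher under edgeR, 71.9% and 65.2% under limma and 40.2% under DESeq2. The cause was not tested. Same-numbered libraries deviated together in no consistent way (correlations of -0.15 to 0.45), and with the replicate number as a block 546 genes were called in the susceptible class, 58.2% of them higher, and 1 between classes under BV-3. No depth limit applies to CERK1 and SERK2, which had at least 650 counts in every library.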
